A study of Homo sapiens with 8 samples.

Results

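The genes described here are those whose response to LY500307 depended on whether the cells had lost KDM1A. RNA of the human ovarian cancer line ES2 was sequenced in 8 libraries, and all 8 enter the comparison. The 4 groups of 2 libraries were ES2 control cells given vehicle, ES2 control cells given LY500307 at 5 µM, ES2 KDM1A knockout cells given vehicle and ES2 KDM1A knockout cells given LY500307 at 5 µM, each treated for 48 h. For every gene the log2 fold change between LY500307 and vehicle was taken in each population, and the response of the control cells was subtracted from that of the knockout cells. This difference is called the response difference below. It is negative where a gene rose less or fell more in knockout cells than in control cells. Of 23228 genes listed, 13498 had enough counts to be tested, and 218 of them (1.62%) had a response difference past an adjusted p of 0.05 in edgeR's quasi-likelihood test, with p-values adjusted after Benjamini and Hochberg over all genes tested.

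KDM1A, also known as LSD1, takes methyl marks off histone H3 and works in repressor assemblies with CoREST and histone deacetylases, which keep enhancers and lineage genes quiet. LY500307 is a selective agonist of oestrogen receptor beta, a ligand-activated transcription factor of the nuclear receptor family with reported growth-restraining effects in ovarian cancer cells. Nuclear receptors recruit or release histone-modifying enzymes, KDM1A among them, when a ligand binds. The comparison asks which parts of the transcriptional response to the agonist are altered when the demethylase is missing. The position of the KDM1A edit, the number of knockout clones and the use of separate cultures were not given in the sources used here. A difference between the populations that arose apart from KDM1A therefore cannot be told apart from the loss of KDM1A, and p-values measure the spread between these libraries, which may be technical.

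The libraries held 24348937 to 30131097 gene counts. Values per library are CPM, a gene's counts relative to the scaled size of its library, with replicate 1 before replicate 2. The KDM1A transcript (hg19 chromosome 1, 23345936 to 23410182) measured 220.0 and 219 CPM with vehicle and 238 and 241 CPM with LY500307 in control cells, and 75.6 and 77.8 CPM with vehicle and 72.0 and 71.6 CPM with LY500307 in the matching knockout cells, so that every knockout library lay below every control library. Its own response difference was -0.22 (adjusted p = 0.1), not past the threshold. ESR2, the gene of the receptor that LY500307 activates, had 1 and 7 counts in vehicle-treated control cells, 5 and 6 in LY500307-treated control cells, 6 and 4 in vehicle-treated knockout cells and 5 and 7 in LY500307-treated knockout cells, too few for a test. ESR1, which encodes oestrogen receptor alpha, had 5 to 12 counts per library, and a response difference was not detectable at this depth (95% interval -1.44 to 1.88 on the log2 scale). Among 15 epithelial ovarian carcinoma markers, KRT7, KRT18 and KRT8 were measured in every library, while MUC16, MSLN, WFDC2, NAPSA and SOX17 stayed under 1 CPM throughout. Of markers of other cell types, 11 of 15 haematopoietic ones (PTPRC, CD3E and CD14 among them) and 6 of 10 endothelial ones (PECAM1 and VWF among them) stayed under 1 CPM in every library. Others of these lists were measured, with CD68 at 61.6 to 112 CPM, ITGB2 at 35.5 to 74.7 CPM, CDH5 at 23.8 to 103 CPM and TIE1 at 219 to 335 CPM. ITGB2, an integrin beta chain of leukocytes named after its values were seen, stood at 67.2 and 74.1 CPM with vehicle and 74.7 and 73.1 CPM with LY500307 in control cells and fell from 48.6 and 56.2 to 35.5 and 38.1 CPM in knockout cells. Its response difference was -0.58 (SE 0.10, adjusted p = 0.000724), and it passed under every alternative.

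Some genes that were all but silent in 1 population and abundant in the other had more counts in the LY500307 libraries. In control cells, 3 genes chosen for lying under 0.1 CPM with vehicle and at 10 CPM or more in knockout cells stood at 0.208% and 0.104% of their knockout level with vehicle and at 0.469% and 1.35% with LY500307. Of these, CLEC5A went from 0 and 0 to 5 and 19 counts and FOLR3 from 3 and 1 to 6 and 11 counts, while CDH19 had 1 and 1 and then 0 and 1. In knockout cells, 12 genes of the reverse kind stood at 0.0952% and 0.124% of their control level with vehicle and at 0.202% and 0.34% with LY500307. The choice of genes by their low vehicle level favours a higher value in the LY500307 libraries, and the origin of these counts was not tested. The counts and named genes below were also computed after subtracting that share of the other population's counts, a step chosen after the values were seen. With it 232 genes passed, 214 of them among the 218. Values with this share removed are given beside genes that were far higher in the other population.

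In the reported fit the response was altered downwards more often than upwards. Of the 218 genes, 147 had a negative response difference (1.09% of genes tested) and 71 a positive one (0.526%). The split was closer to even in a fit with a replicate block, with 346 negative and 297 positive among 643 genes. The differences were mostly small, with a median absolute size of 1.32-fold. They reached 1.5-fold in 53 genes, 42 of them negative, and 2-fold in 16 genes, 11 of them negative. The 95% interval of the response difference lay within 1.5-fold for 9442 genes, or 70% of those tested. That bound is wider than the median called size of 1.32-fold, so it leaves room for differences of the size called. LY500307 raised 1665 genes (12.3% of those tested) and lowered 1885 (14%) in control cells, 3550 (26.3%) in all. It raised 1237 (9.16%) and lowered 1522 (11.3%) in knockout cells, 2759 (20.4%) in all. With vehicle alone, 8637 genes (64%) differed between the populations, 4146 higher (30.7%) and 4491 lower (33.3%) in knockout cells. With library totals in place of scaled library sizes these splits became 2831 higher and 1011 lower in control cells, and 2288 higher and 953 lower in knockout cells. The pair of responses share no library, and 1473 genes changed in the same direction in both, 41.5% of the genes that changed in control cells and 53.4% of those that changed in knockout cells. Of these 1473 genes, 1337 had the interval of the response difference within 1.5-fold. The pair of responses had a Pearson r of 0.389 across all 13498 genes and of 0.581 across the 9381 with a mean of 10 CPM or more, which are not independent replicates.

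The 218 genes fell into 5 kinds by their responses in the separate populations, which use the same libraries as the response difference. In 94 genes LY500307 changed expression in control cells with no call in knockout cells, and in 73 it changed expression in knockout cells with no call in control cells. Both responses passed with opposite signs in 28 genes. Both passed with the same sign in 23 genes, the change being larger in control cells in 12 and larger in knockout cells in 11. The most frequent single form, with 37 genes, was a rise in control cells beside a knockout estimate below 0 that did not pass. The kinds depend on where the threshold lies, and with responses called at an adjusted p of 0.01 there were 7 genes with opposite signs, 7 with a larger same-direction change in knockout cells and 30 with no call in either population.

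**Figure D1:**
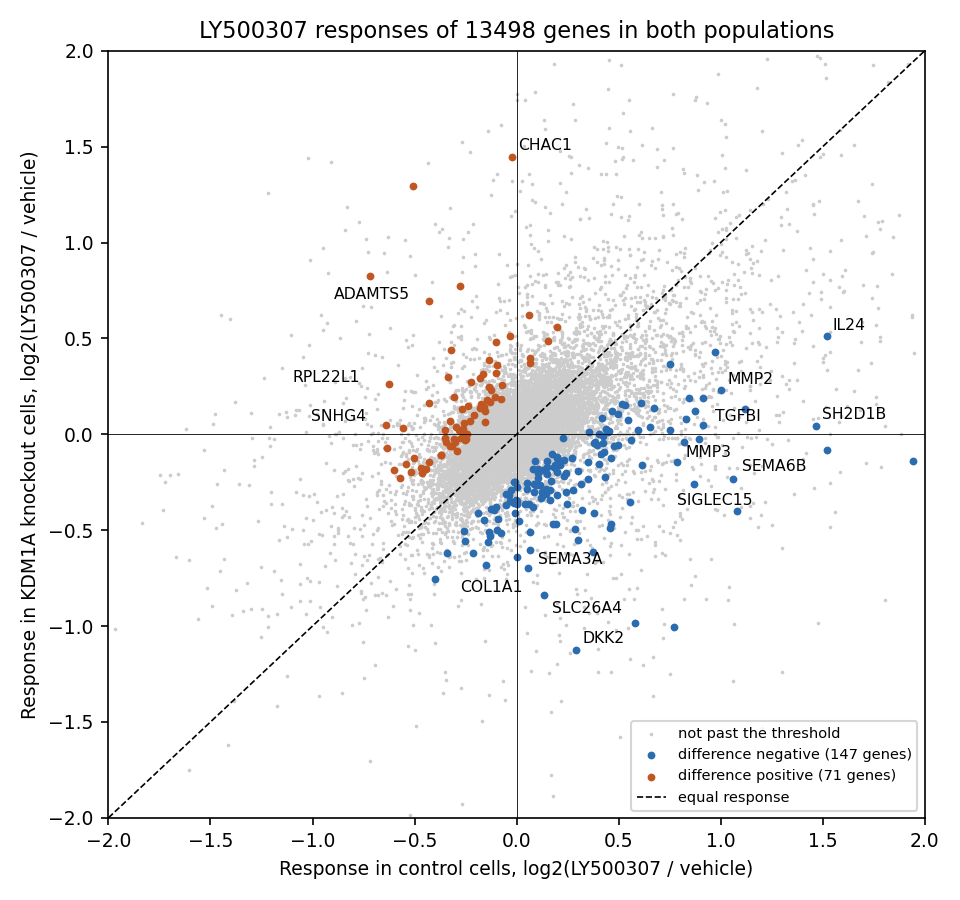
Response to LY500307 in control cells (horizontal axis) against that in KDM1A knockout cells (vertical axis), both as log2 fold changes, for the 13498 genes tested. Blue points are the 147 genes with a negative and orange points the 71 with a positive response difference past an adjusted p of 0.05, the dashed line marks equal responses, and 155 genes, of which 1 passed, lie beyond the axis limits of 2.

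TGFBI had the smallest p of all genes. It encodes a secreted adaptor protein of the extracellular matrix that is induced by TGF-beta and binds collagens and integrins (hg19 chromosome 5, 135364677 to 135399507). In control cells TGFBI measured 85.9 and 81.7 CPM with vehicle and 155 and 160.3 CPM with LY500307. In knockout cells it measured 125 and 127 CPM with vehicle and 129.5 and 131 CPM with LY500307. The control libraries separated completely by treatment, and the LY500307-treated knockout libraries lay only just above the vehicle-treated ones. The response was 0.91 (SE 0.05) in control cells and 0.05 (SE 0.05) in knockout cells on the log2 scale, a response difference of -0.87 (SE 0.07, adjusted p = 1.55e-09). Subtracting the share of the other population left -0.87.

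The gene with the smallest p among positive response differences was RPL22L1, a paralogue of the ribosomal protein RPL22 (hg19 chromosome 3, 170582664 to 170587997). It fell from 172 and 172 CPM with vehicle to 114 and 108 CPM with LY500307 in control cells. In knockout cells it rose from 69.9 and 60.9 CPM to 79.8 and 76.6 CPM. Neither pair of groups overlapped, and all 4 knockout libraries lay below all 4 control libraries. The responses were -0.63 (SE 0.06) and 0.26 (SE 0.06), a response difference of 0.89 (SE 0.08, adjusted p = 1.53e-08). TGFBI and RPL22L1 thus had the smallest p in each direction, though not the largest response differences. The bases just before their transcription starts are shown for that reason, from RefSeq on GRCh38.p14 and in the direction of the gene. Capitals mark a match to the letters searched for NF-kB (GGGA and CC with NNNN between them) in the first. In the second they mark those searched for the antioxidant response element (TGACNNNGC), out of 9 motifs searched. These letters occurred before 27% and 12.1% of all genes searched.
TGFBI, chr5:136028738-136028987, plus strand: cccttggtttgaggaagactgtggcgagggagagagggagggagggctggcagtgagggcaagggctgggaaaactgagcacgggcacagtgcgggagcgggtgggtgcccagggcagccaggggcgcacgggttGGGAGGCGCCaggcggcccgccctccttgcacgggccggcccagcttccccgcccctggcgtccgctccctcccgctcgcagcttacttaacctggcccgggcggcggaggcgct
RPL22L1, chr3:170870196-170870445, minus strand: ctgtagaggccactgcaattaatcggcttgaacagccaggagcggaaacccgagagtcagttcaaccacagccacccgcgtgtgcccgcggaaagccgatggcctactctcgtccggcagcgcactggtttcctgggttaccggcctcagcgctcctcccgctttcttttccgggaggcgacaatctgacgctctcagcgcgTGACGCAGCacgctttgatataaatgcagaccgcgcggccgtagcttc

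Windows of the same length before the start were matched by symbol for 10308 of the tested genes, among them 112 of the genes with a negative and 55 of those with a positive response difference. Both strands were searched, and a match is a description of letters only. The palindromic oestrogen response element, GGTCA and TGACC with NNN between them, was present in 1 of the 10308 windows and in none of those of the altered genes. The AP-1 motif, TGANTCA, was in 7.14% of windows of negative genes, 3.64% of positive genes and 4.01% of all genes. The TEAD motif, GGAATG, was in 13.4%, 7.27% and 9.39%, and the NF-kB motif, GGGA and CC with NNNN between them, in 30.4%, 21.8% and 27%. The antioxidant response element, TGACNNNGC, was in 8.93%, 14.5% and 12.1%, and the CCAAT box in 36.6%, 40% and 35.5%. The amino acid response element, TGATGNAA, was in 2.68%, 5.45% and 1.52%, which is 3 genes of each altered set. The sterol regulatory element, TCACNCCAC, was in 0.893%, 0% and 0.893%, and the E2F motif, TTTCCCGC, in 1.79%, 3.64% and 2.21%. These shares rest on few genes and none was tested.

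A first group of genes rose with LY500307 in control cells and rose less, or not detectably, in knockout cells. MMP2, the gelatinase that cleaves basement membrane collagen, went from 38.6 and 41.2 to 74.1 and 85.9 CPM in control cells. In knockout cells, where it was far more abundant before treatment, it went from 653 and 652 to 769 and 761 CPM. The groups did not overlap in either population, and the rise was 1.0 in control and 0.23 in knockout cells on the log2 scale, a response difference of -0.77 (SE 0.08, adjusted p = 2.95e-08). With the share of the other population removed the response difference was -0.69. On the scale of CPM itself the order turns, and from the higher start the rise was 71.9 CPM larger in knockout than in control cells. MMP3, the stromelysin protease, stood at 30.9 and 35.0 CPM in vehicle-treated and at 47.2 and 66.6 CPM in LY500307-treated control cells. It stood at 2422 and 2436 CPM with vehicle and 2263 and 2139.5 CPM with LY500307 in the matching knockout cells, which did not overlap although the response there did not pass. Its response difference of -0.93 (SE 0.11, adjusted p = 8.23e-07) moved to -0.49 (adjusted p = 0.000382) once the share of the other population was removed, and still passed. TIMP3, an inhibitor of such proteases, rose by 0.61 in control cells and by 0.17 in knockout cells on the log2 scale, a response difference of -0.44 (SE 0.07, adjusted p = 0.000313).

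Several genes of this group were far lower in vehicle-treated control cells than in knockout cells. SH2D1B encodes an adaptor of SLAM-family receptors best known from natural killer cells. It measured 2.43 and 1.75 CPM in vehicle-treated and 6.43 and 5.14 CPM in LY500307-treated control cells, against 22.7 and 23.0 CPM with vehicle and 24.3 and 22.9 CPM with LY500307 in knockout cells. Only the control libraries separated by treatment, and the response difference was -1.42 (SE 0.20, adjusted p = 4.63e-05). SEMA6B, a transmembrane semaphorin of axon guidance, went from 1.53 and 1.71 to 3.11 and 3.67 CPM in control cells and from 29.8 and 31.2 to 25.2 and 26.8 CPM in knockout cells. Its response difference was -1.30 (SE 0.21, adjusted p = 0.000383), and all 4 control libraries remained well under the knockout ones. PDE2A, a phosphodiesterase of cyclic nucleotides, went from 2.90 and 2.52 to 5.56 and 6.24 CPM in control cells and from 32.2 and 39.3 to 39.0 and 39.6 CPM in knockout cells, with a response difference of -0.99 (SE 0.19, adjusted p = 0.00244). RASGRF1, an exchange factor for Ras, rose from 26.9 and 24.7 to 35.3 and 37.4 CPM in control cells and stood at 124 and 124 CPM with vehicle and 119 and 119 CPM with LY500307 in knockout cells, with a response difference of -0.55 (SE 0.09, adjusted p = 0.000317). With the share of the other population removed, the response differences of SH2D1B, SEMA6B, PDE2A and RASGRF1 were -1.41, -1.24, -0.95 and -0.53, all past the threshold. The cytokine gene IL24 rose in both populations, from 1.53 and 1.11 to 3.35 and 4.25 CPM in control and from 35.1 and 31.6 to 47.3 and 47.9 CPM in knockout cells. The call of its response difference, -1.0 (SE 0.23, adjusted p = 0.0128), was lost without replicate 2 of the vehicle-treated control cells (adjusted p = 0.16), without replicate 2 of the LY500307-treated control cells (adjusted p = 0.147) and with limma-voom (adjusted p = 0.0825).

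CLEC5A, a lectin receptor of myeloid cells, is the extreme of such genes. It had 0 counts in both vehicle-treated control libraries, 5 and 19 counts in the LY500307-treated control libraries, and 3245 and 3259 counts over the libraries of vehicle-treated and LY500307-treated knockout cells. Against a floor of 3 counts over the group, the level in control cells was at least 6.62-fold higher with LY500307, while the ratio in knockout cells was 0.991. It is 1 of the 3 genes that set the share of the other population, and removing that share takes away its own counts, so no value with the share removed is given. Its call was lost without replicate 2 of the LY500307-treated control cells (adjusted p = 0.146).

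A second group rested on the knockout cells, where LY500307 lowered genes that it left near their starting level in control cells. SEMA3A, a secreted semaphorin that repels growing axons and binds neuropilins, stood at 102 and 96.6 CPM in vehicle-treated and at 107 and 99.6 CPM in LY500307-treated control cells. In knockout cells it fell from 78.5 and 79.0 to 49.0 and 48.2 CPM. The control groups overlapped and the knockout groups did not, and the response difference was -0.75 (SE 0.08, adjusted p = 4.88e-07). DKK2, a secreted modulator of WNT signalling, stood at 6.82 and 6.53 CPM with vehicle and 7.93 and 8.42 CPM with LY500307 in control cells and fell from 8.34 and 7.46 to 3.49 and 3.74 CPM in knockout cells. The groups were apart in both populations, but the control response of 0.29 did not pass (adjusted p = 0.114), and the response difference was -1.42 (SE 0.20, adjusted p = 4.63e-05). DESeq2's Wald test gave no adjusted p for DKK2. SLC26A4, an anion exchanger, stood at 3.92 and 3.67 CPM with vehicle and 3.88 and 4.46 CPM with LY500307 in control cells and fell from 11.9 and 10.4 to 5.66 and 6.81 CPM in knockout cells. A response difference of -0.97 (SE 0.22, adjusted p = 0.0129) resulted, which did not pass without replicate 2 of the vehicle-treated control cells (adjusted p = 0.062), replicate 2 of the LY500307-treated control cells (adjusted p = 0.113) or replicate 1 of the vehicle-treated knockout cells (adjusted p = 0.0636).

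**Figure D2:**
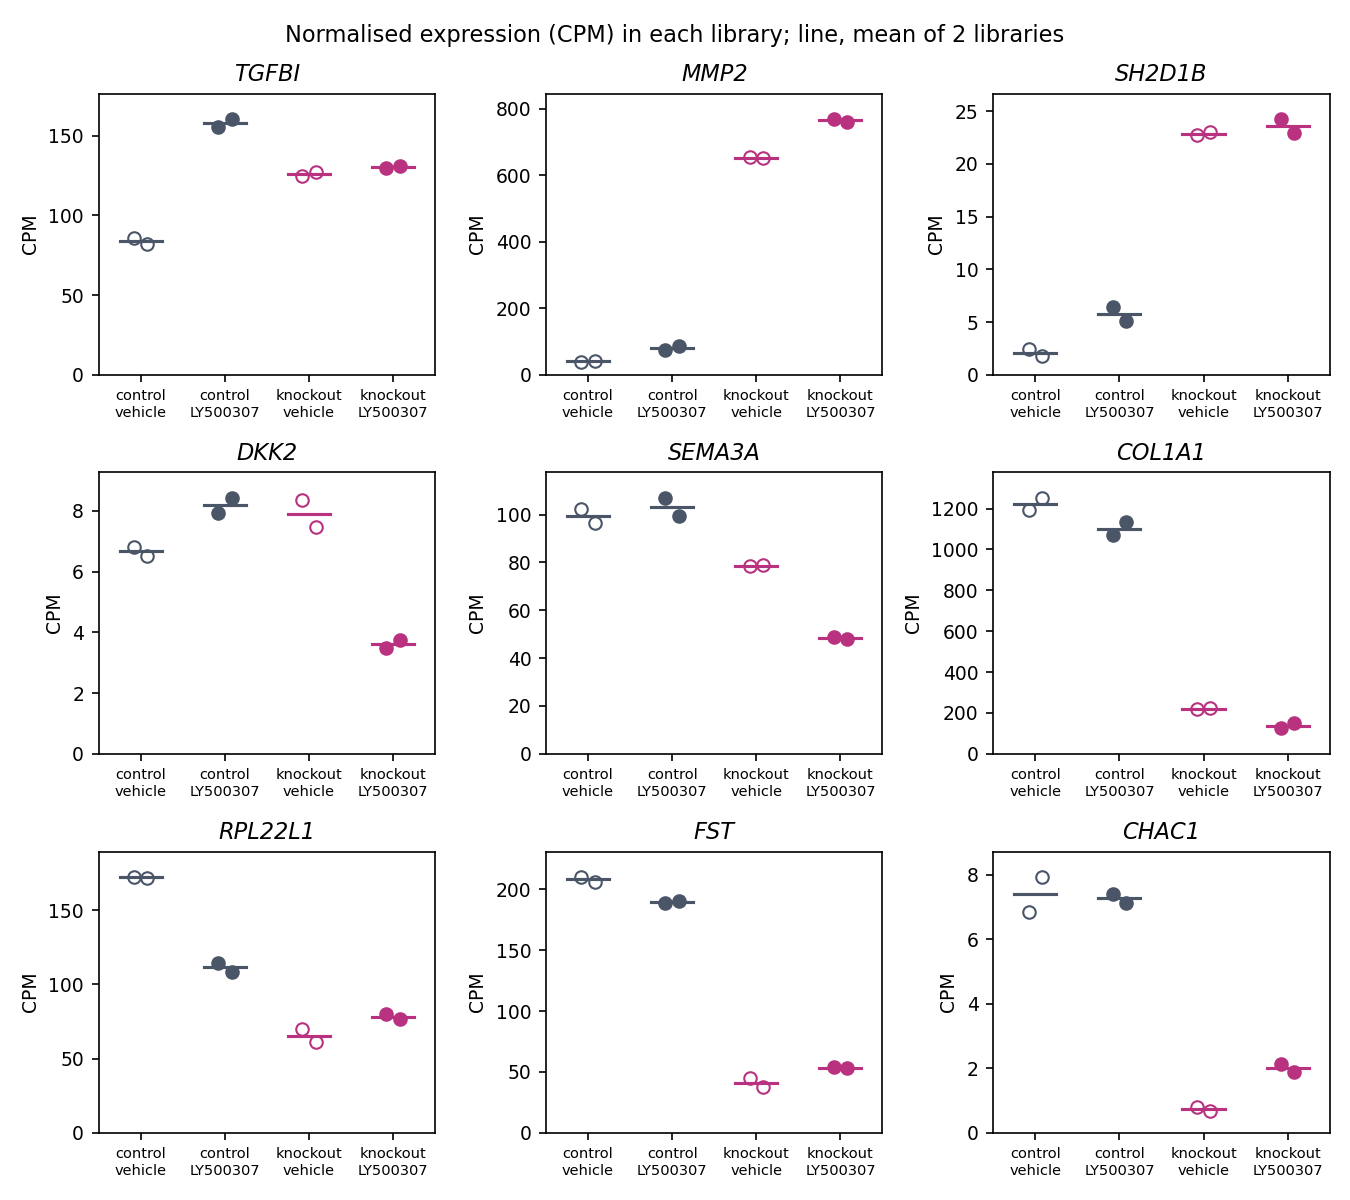
Expression in CPM (vertical axes, each starting at 0) of 9 genes in each of the 8 libraries, with open symbols for vehicle, filled symbols for LY500307 and a line at the mean of the 2 libraries of a group. TGFBI, MMP2 and SH2D1B rise with LY500307 mainly in control cells, DKK2, SEMA3A and COL1A1 fall mainly in knockout cells, and RPL22L1, FST and CHAC1 have a higher response in knockout cells.

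Genes of the extracellular matrix passed with negative response differences, some with and some without a response in control cells. Of 30 tested genes in a list of collagens, laminins and matrix glycoproteins, 12 had a negative response difference past the threshold (40%, against 1.09% of all genes tested) and 0 a positive one. This list, like the others, was chosen with earlier results of these data known, and its share was not tested. The median response difference of the list was -0.236, beside 0.00614 over all genes. LY500307 lowered 18 of the 30 in knockout cells and 7 in control cells (against 11.3% and 14% of all genes), and raised 2 and 4. The list's median response was -0.231 in knockout and -0.00263 in control cells. The 12 genes were COL1A1, FN1, LAMB1, COL13A1, LAMA4, COL6A3, TNC, SPARC, LAMC1, LOX, LOXL2 and COL6A2. When 1 library was left out at a time, between 7 and 14 of the list passed with a negative sign, and 7 passed without replicate 2 of the vehicle-treated control cells, without either LY500307-treated control library or without replicate 2 of the vehicle-treated knockout cells.

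COL1A1, the alpha 1 chain of type I collagen (hg19 chromosome 17, 48261462 to 48278993), fell in both populations. It stood at 1193 and 1251 CPM with vehicle and 1069 and 1132 CPM with LY500307 in control cells, and at 218 and 224 CPM with vehicle and 127 and 149 CPM with LY500307 in knockout cells. The groups did not overlap, and the response was -0.15 in control and -0.68 in knockout cells, a response difference of -0.53 (SE 0.07, adjusted p = 1.22e-05). In CPM the fall was larger in control cells, by 38.7 CPM, which started from a higher level. FN1, fibronectin, stood at 3475 and 3368 CPM with vehicle and 3352 and 3507 CPM with LY500307 in control cells, which overlapped, and at 883 and 897 CPM with vehicle and 674 and 708 CPM with LY500307 in knockout cells, which did not. Its response difference was -0.37 (SE 0.05, adjusted p = 4.66e-05). COL13A1, a transmembrane collagen, fell from 145 and 129 to 95.8 and 97.7 CPM in knockout cells against 139 and 144 CPM with vehicle and 132 and 133 CPM with LY500307 in control cells, with a response difference of -0.40 (SE 0.08, adjusted p = 0.00271). COL6A3 and TNC, which encode a type VI collagen chain and tenascin C, fell in both populations, with responses of -0.40 and -0.25 in control cells and -0.75 and -0.56 in knockout cells. The response difference of COL6A3, -0.36 (SE 0.08, adjusted p = 0.00738), did not pass without replicate 1 of either LY500307 group (adjusted p = 0.0569 for control and 0.0526 for knockout cells). That of TNC, -0.30 (SE 0.06, adjusted p = 0.00763), did not pass without replicate 1 of the vehicle-treated (adjusted p = 0.0686) or replicate 2 of the LY500307-treated control cells (adjusted p = 0.11). The other matrix genes that passed were LAMA4 (-0.46), SPARC (-0.28), LAMC1 (-0.24), LOX (-0.23) and LOXL2 (-0.24), a laminin chain, a collagen-binding glycoprotein, a second laminin chain and a pair of enzymes that cross-link collagen. Without 1 library at a time, LAMA4 lost its call once (without replicate 1 of the LY500307-treated control cells, adjusted p = 0.0501) and SPARC, LOX, LAMC1, LOXL2 and COL6A2 lost theirs in 3, 3, 5, 7 and 7 of the 8 fits (adjusted p up to 0.0917, 0.149, 0.112, 0.148 and 0.237). COL6A2 also lost its call with DESeq2's Wald test (adjusted p = 0.323). Replicate 2 of the vehicle-treated control and of the vehicle-treated knockout cells were among the libraries in each of those 5 genes.

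Some of these genes, COL1A1 among them, also mark fibroblasts. The summed level of 12 mesothelial and fibroblast markers, COL1A1 included, was 1279 to 1334 CPM in vehicle-treated and 1179 to 1241 CPM in LY500307-treated control cells, and 264 to 267 CPM and 179 to 200 CPM in knockout cells. DCN, COL3A1, CALB2, UPK3B and DES of that list stayed under 1 CPM in every library. COL1A1 made up most of that sum, and the sum of the other 11 markers rose with LY500307 in both populations. Together they stood at 82.55 to 85.8 CPM with vehicle and 109 to 110.4 CPM with LY500307 in control cells, and at 42.9 to 45.5 CPM and 51.1 to 52.0 CPM in knockout cells. Of the 12 markers, 8 were tested and COL1A1 alone had a response difference past the threshold. The part of these markers in the response differences was not tested, and in bulk RNA fewer cells of a kind and less RNA per cell cannot be told apart.

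**Figure D3:**
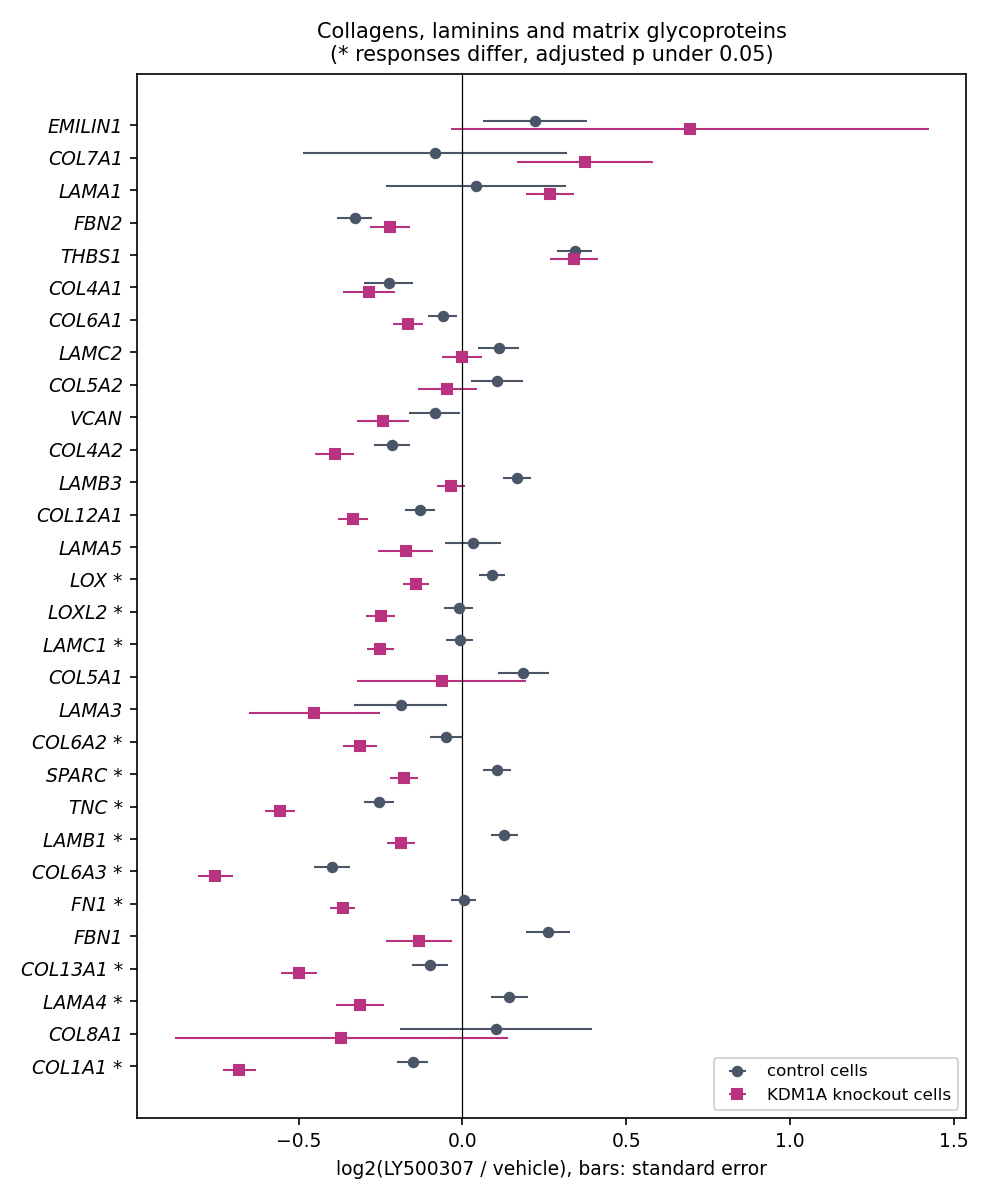
Response to LY500307 as log2 fold change with its standard error (horizontal axis) in control cells (circles) and KDM1A knockout cells (squares) for the 30 tested collagens, laminins and matrix glycoproteins. The 12 genes with an asterisk had a response difference past an adjusted p of 0.05, and in each of them the square lies to the left of the circle.

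Proteases of the matrix and their inhibitors moved both ways. Of 19 tested metalloproteinases and inhibitors, 3 had a negative response difference (MMP2, MMP3 and TIMP3, above) and 2 a positive one, 26.3% in all against 1.62% of all genes tested (1.09% negative and 0.526% positive). ADAMTS1, a protease that cleaves aggrecan and versican, fell from 802 and 823 to 625 and 649 CPM in control cells and stood at 595 and 595 CPM with vehicle and 569 and 606 CPM with LY500307 in knockout cells, a response difference of 0.33 (SE 0.06, adjusted p = 0.000782). ADAMTS5, another aggrecanase, fell from 8.18 and 9.0 to 6.71 and 6.06 CPM in control cells and rose from 2.63 and 1.94 to 4.16 and 3.18 CPM in knockout cells. The value of 1.12 (SE 0.25, adjusted p = 0.0114) did not pass without replicate 2 of the vehicle-treated control (adjusted p = 0.0511), LY500307-treated control (adjusted p = 0.0637) or vehicle-treated knockout cells (adjusted p = 0.165), or without replicate 1 of the LY500307-treated knockout cells (adjusted p = 0.0991).

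In the plasminogen system, which activates a serine protease that dissolves fibrin and matrix, 3 of 12 tested genes passed, all with a negative response difference (25%, against 1.09% of all genes tested). PLAT, the tissue activator, stood at 1307 and 1317 CPM in vehicle-treated and at 1357 and 1382 CPM in LY500307-treated control cells, and fell from 343 and 343 to 265 and 268 CPM in knockout cells. The fall in knockout cells was larger than the spread of its libraries, and the response difference was -0.43 (SE 0.05, adjusted p = 7.97e-06). SERPINB2, an inhibitor of the activators, rose from 1246 and 1234 to 1399 and 1347 CPM in control cells and fell from 1862 and 1873 to 1745 and 1647 CPM in knockout cells, a response difference of -0.29 (SE 0.05, adjusted p = 0.00195). PLAU, the urokinase activator, rose by 0.23 in control cells and stood at -0.02 in knockout cells on the log2 scale. This response difference, -0.25 (SE 0.06, adjusted p = 0.0148), did not pass in 4 of the 8 fits that left out 1 library, those without either LY500307-treated control library or without replicate 2 of either vehicle group, with adjusted p up to 0.0933.

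In 28 genes LY500307 moved expression in opposite directions in the populations, 21 of them up in control and down in knockout cells. LAMB2, the laminin beta 2 chain and not in the matrix list above, rose from 55.2 and 58.2 to 71.2 and 70.7 CPM in control cells and fell from 126 and 136 to 91.4 and 107 CPM in knockout cells. LAMB1, the beta 1 chain, rose from 517 and 503 to 552 and 562 CPM and fell from 472 and 461 to 399 and 420.0 CPM. In both genes the LY500307 and vehicle libraries were apart in each population, and the response differences were -0.72 (SE 0.09, adjusted p = 7.52e-06) for LAMB2 and -0.31 (SE 0.06, adjusted p = 0.00195) for LAMB1. SIGLEC15, a sialic acid-binding lectin with immune inhibitory activity, rose from 2.98 and 2.99 to 4.96 and 5.96 CPM in control cells and fell from 79.7 and 80.3 to 62.4 and 71.3 CPM in knockout cells. Its response difference was -1.13 (SE 0.17, adjusted p = 0.000101), and -1.03 with the share of the other population removed. SERINC2, a membrane protein of the serine incorporator family, rose from 315 and 329 to 354 and 385 CPM and fell from 1107 and 1227 to 926 and 952 CPM, a response difference of -0.51 (SE 0.07, adjusted p = 7.52e-06).

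F2R, the thrombin receptor, and MYLK, the kinase that phosphorylates myosin light chain, moved the same way. F2R rose from 201 and 201 to 229.7 and 222 CPM in control cells and fell from 164 and 181 to 135 and 139 CPM in knockout cells. MYLK went from 231 and 235 to 258 and 251 CPM and from 233 and 231 to 185 and 192 CPM. The response differences were -0.51 (SE 0.07, adjusted p = 3.65e-05) for F2R and -0.43 (SE 0.06, adjusted p = 9.14e-05) for MYLK, with no overlap between treatments in either population. RARB, the gene of retinoic acid receptor beta, was singled out after its values were seen. It was the only one of 34 nuclear receptors and coregulators to pass (2.94%, against 1.62% of all genes tested). It rose from 13.1 and 12.6 to 16.6 and 16.9 CPM in control cells and fell from 28.6 and 28.0 to 21.3 and 21.3 CPM in knockout cells, a response difference of -0.79 (SE 0.13, adjusted p = 0.000317). CADPS, a regulator of vesicle exocytosis, had a response difference of -1.48 (SE 0.38, adjusted p = 0.0354) from 0.384 and 0.597 CPM with vehicle and 1.12 and 0.963 CPM with LY500307 in control and 8.95 and 9.20 CPM with vehicle and 6.49 and 7.26 CPM with LY500307 in knockout cells. That call was lost with the share of the other population removed (adjusted p = 0.055), with limma-voom (adjusted p = 0.0865) and in 7 of the 8 fits without 1 library, all but that without replicate 2 of the LY500307-treated knockout cells, with adjusted p up to 0.244. The reverse form, down in control and up in knockout cells, had 7 genes. Besides RPL22L1 and ADAMTS5 it held SLC25A15, the mitochondrial ornithine carrier, which fell from 34.1 and 34.0 to 27.8 and 26.1 CPM in control cells and rose from 16.6 and 15.8 to 19.4 and 20.5 CPM in knockout cells. Its response difference was 0.63 (SE 0.12, adjusted p = 0.00226).

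**Figure D4:**
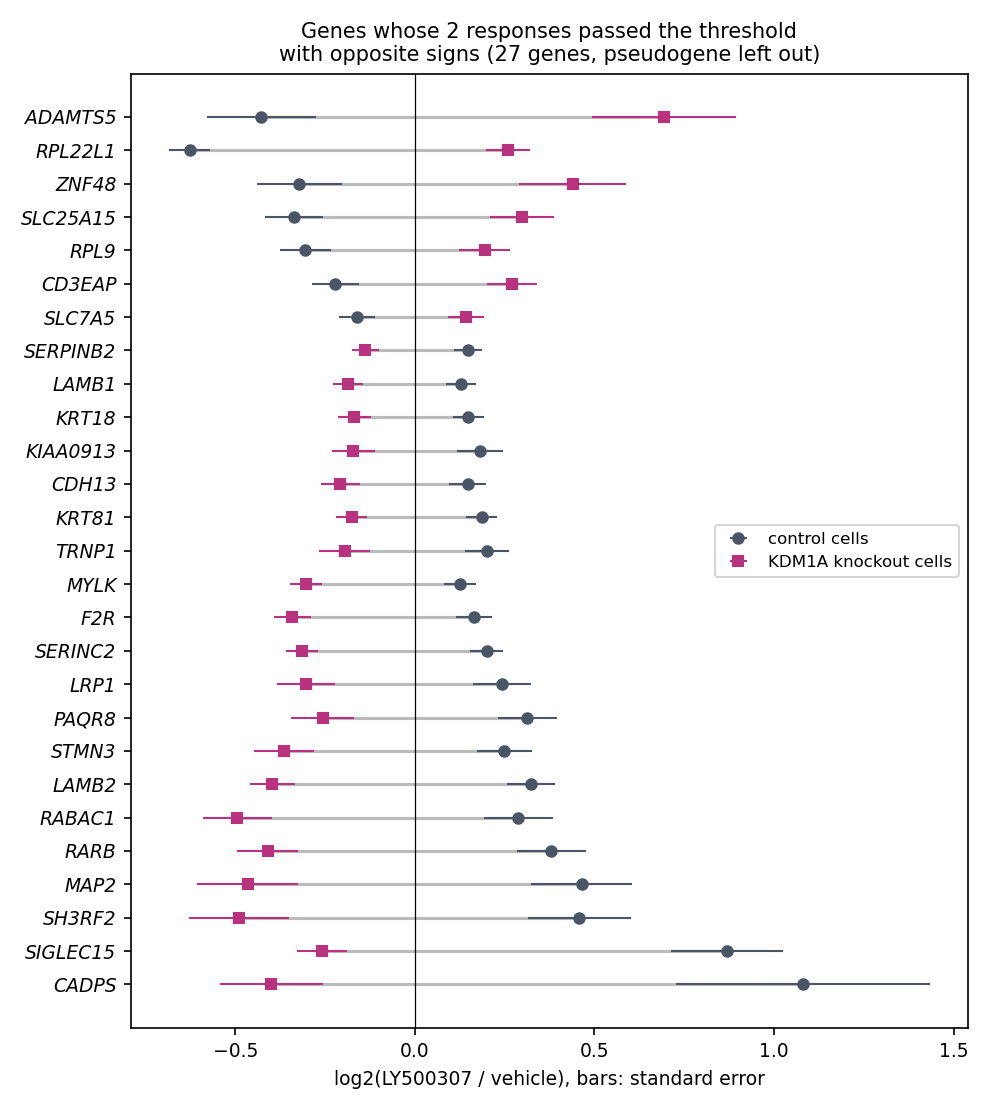
Response to LY500307 as log2 fold change with its standard error (horizontal axis) in control cells (circles) and KDM1A knockout cells (squares) for 27 of the 28 genes whose responses passed the threshold with opposite signs, leaving out a pseudogene. The knockout response lies above 0 in the 7 genes at the top and below 0 in the others.

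The simple-epithelium keratins KRT7, KRT18 and KRT8 had negative response differences. They were 3 of the 9 tested carcinoma markers (33.3%, against 1.09% of all genes tested). KRT19 of the same marker list, at 0.562 to 1.58 CPM, was not among those that passed. KRT7 rose from 252 and 262 to 329 and 342 CPM in control cells and stood at 358 and 369.6 CPM with vehicle and 359.8 and 349 CPM with LY500307 in knockout cells, a response difference of -0.42 (SE 0.06, adjusted p = 6.53e-05). KRT18 rose from 334 and 320.2 to 365 and 360.1 CPM and fell from 163 and 159 to 141 and 145 CPM, a response difference of -0.32 (SE 0.06, adjusted p = 0.0047). KRT8, the partner of KRT18 in the filament, went from 25.1 and 29.4 to 30.1 and 32.1 CPM and from 7.49 and 7.39 to 5.29 and 5.45 CPM. KRT8's response difference of -0.66 (SE 0.16, adjusted p = 0.019) passed without replicate 1 of the LY500307-treated control cells, without replicate 2 of the vehicle-treated control cells and without replicate 2 of the LY500307-treated knockout cells, but not without any of the other 5 libraries (adjusted p up to 0.116). The median response difference of the 9 markers was 0.481, of the opposite sign to these 3, and the other 6 did not pass. The summed level of all 15 markers was 618 to 624 CPM in vehicle-treated and 730 to 740 CPM in LY500307-treated control cells, and 542 to 550.3 CPM and 514 to 520.1 CPM in knockout cells. That sum includes the keratins themselves.

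Mitotic genes gave a mixed picture. Of 41 tested genes of G2 phase and mitosis, 3 had a negative and 1 a positive response difference (9.76% in all, against 1.09% negative and 0.526% positive of all genes tested), and the list's median of 0.00903 was near that of all genes. TOP2A, the topoisomerase that untangles chromosomes, fell from 766 and 727 to 655 and 633 CPM in control cells and from 675 and 619.9 to 419.7 and 423 CPM in knockout cells, a response difference of -0.41 (SE 0.06, adjusted p = 9.14e-05). CDK1, the kinase that starts mitosis, fell from 251 and 246 to 235 and 218 CPM and from 294 and 276 to 200 and 200 CPM, with -0.38 (SE 0.07, adjusted p = 0.00109). UBE2C, the ubiquitin-conjugating enzyme of the anaphase-promoting complex, stood at 159.5 and 169 CPM with vehicle and 150.4 and 149 CPM with LY500307 in control cells and fell from 156 and 155 to 114 and 102 CPM in knockout cells, with -0.40 (SE 0.07, adjusted p = 0.00195). All 3 fell further in knockout cells, with no overlap between the knockout groups. MKI67, the proliferation antigen, went the other way, falling from 667 and 653 to 594 and 591 CPM in control cells against 645 and 619 CPM with vehicle and 671 and 650.3 CPM with LY500307 in knockout cells. MKI67's response difference of 0.22 (SE 0.06, adjusted p = 0.0357) did not pass with DESeq2's size factors, with a minimum of 1 CPM in 2 libraries, or in 6 of the 8 fits without 1 library, the exceptions being replicate 1 of the vehicle-treated and replicate 2 of the LY500307-treated knockout cells (adjusted p up to 0.22). Of 46 tested genes of G1/S transition and DNA replication, LY500307 lowered 34 in control and 35 in knockout cells (14% and 11.3% of all genes). The share with a response difference past the threshold was 2.17%, against 1.62% of all genes tested. It was MCM5 alone, a subunit of the replicative helicase (-0.28, adjusted p = 0.0495). It did not pass with limma-voom or in 6 of the 8 fits without 1 library (adjusted p up to 0.269), the exceptions being replicate 2 of the vehicle-treated control and of the LY500307-treated knockout cells.

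The TGF-beta and BMP list had 3 of 35 tested genes past the threshold (8.57%, against 1.62% of all genes tested). TGFBI and ID3 had negative response differences. FST, follistatin, which binds and blocks activins, stood at 210.1 and 206 CPM in vehicle-treated and at 189 and 191 CPM in LY500307-treated control cells. In knockout cells it rose from 44.6 and 37.2 to 53.8 and 53 CPM. The knockout groups did not overlap, and the response difference was 0.52 (SE 0.09, adjusted p = 0.000362). ID3, an inhibitor of helix-loop-helix factors, went from 13.3 and 17.9 to 22.3 and 26.9 CPM in control and from 17.8 and 22.4 to 21.1 and 20.3 CPM in knockout cells. The call for ID3, -0.62 (SE 0.16, adjusted p = 0.0379), was lost with DESeq2's Wald test (adjusted p = 0.362), without replicate 1 of the vehicle-treated control cells or without replicate 2 of any other group (adjusted p up to 0.339).

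The largest positive response difference among the genes named was that of CHAC1, an enzyme that degrades glutathione and a target of the stress factor ATF4. It measured 6.86 and 7.93 CPM in vehicle-treated and 7.41 and 7.13 CPM in LY500307-treated control cells, and rose from 0.810 and 0.669 to 2.14 and 1.89 CPM in knockout cells. Every knockout library lay below every control library, and the response difference of 1.47 (SE 0.31, adjusted p = 0.00705) did not pass without replicate 2 of the vehicle-treated knockout cells (adjusted p = 0.0972). DESeq2's Wald test gave no adjusted p for CHAC1. In all, 3 of 31 tested genes of the integrated stress response passed, each with a positive sign (9.68%, against 0.526% of all genes tested). SLC7A5, a transporter of large neutral amino acids, fell from 290.2 and 303 to 254 and 277 CPM in control cells and rose from 298 and 333 to 339 and 357 CPM in knockout cells, with 0.30 (SE 0.07, adjusted p = 0.0175). ATF4 itself fell from 249 and 254 to 205 and 211 CPM in control cells and stood at 250.1 and 257 CPM with vehicle and 255 and 245 CPM with LY500307 in knockout cells, with 0.25 (SE 0.06, adjusted p = 0.0324). SLC7A5 did not pass in 4 of the 8 fits without 1 library (replicate 2 of the vehicle-treated control, replicate 1 of the LY500307-treated control, replicate 1 of the vehicle-treated knockout and replicate 2 of the LY500307-treated knockout cells, adjusted p up to 0.154), and ATF4 passed in only 1 of them, that without replicate 2 of the LY500307-treated knockout cells (adjusted p up to 0.144 in the others).

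Among genes that make ribosomes, those that passed fell in control cells and had no call in knockout cells. Of 36 tested genes of ribosome biogenesis and MYC targets, 4 had a positive response difference (11.1%, against 0.526% of all genes tested) and 0 a negative one, and the median was 0.15. LY500307 lowered 16 of the 36 in control cells (14% of all genes were lowered there) and 4 in knockout cells, a share like the 11.3% of all genes, and raised 1 and 5 (12.3% and 9.16% of all genes). DDX21, an RNA helicase of ribosomal RNA processing, fell from 896 and 867 to 716 and 712 CPM in control cells and stood at 923 and 889 CPM with vehicle and 904 and 875 CPM with LY500307 in knockout cells. The control groups were apart and the knockout groups overlapped, and the response difference was 0.28 (SE 0.06, adjusted p = 0.00426). ODC1, the first enzyme of polyamine synthesis, had a response difference of 0.22 (SE 0.05, adjusted p = 0.0233). NIP7 and RRS1, a pair of ribosome assembly factors, had 0.29 (SE 0.07, adjusted p = 0.0357) and 0.31 (SE 0.08, adjusted p = 0.0411). The count was 1 without any one of the 4 control libraries or without replicate 2 of the vehicle-treated knockout cells, 2 without replicate 1 of the LY500307-treated knockout cells and 2 with a minimum of 1 CPM in 2 libraries. DDX21 passed in each of these fits.

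SRSF6, a splicing factor rich in serine and arginine, and PNN, a splicing-associated nuclear protein, fell in both populations, with responses of -0.47 and -0.44 in control cells and -0.18 and -0.18 in knockout cells. The response differences, 0.29 (SE 0.06, adjusted p = 0.00912) for SRSF6 and 0.26 (SE 0.06, adjusted p = 0.0177) for PNN, did not pass in 4 and 6 of the 8 fits without 1 library (adjusted p up to 0.0777 and 0.126). SRSF6 lost its call without replicate 1 of each group in turn, and PNN without any control library, without replicate 2 of the vehicle-treated knockout or without replicate 1 of the LY500307-treated knockout cells. Of 11 tested host genes of small nucleolar RNAs, SNHG1 and SNHG4 passed, both positive (18.2%, against 0.526% of all genes tested). SNHG1 had 0.38 (SE 0.08, adjusted p = 0.00451) and did not pass without replicate 2 of the vehicle-treated (adjusted p = 0.0512) or replicate 1 of the LY500307-treated control cells (adjusted p = 0.0726). SNHG4 fell from 19.3 and 17.0 to 12.1 and 11.1 CPM in control cells and stood at 16.4 and 17.7 CPM with vehicle and 17.0 and 18.2 CPM with LY500307 in knockout cells, with 0.69 (SE 0.14, adjusted p = 0.00633). It did not pass without replicate 1 of the vehicle-treated (adjusted p = 0.0625) or replicate 2 of the LY500307-treated control cells (adjusted p = 0.0614).

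LY500307 lowered 52 of 62 tested ribosomal protein genes in control cells and 41 in knockout cells and raised 0 of them in either (14% and 11.3% of all genes were lowered), and their median response difference was 0.0428. RPL9, a ribosomal protein gene that the list does not hold, fell from 224 and 219 to 199 and 159 CPM in control cells and rose from 221 and 179 to 223 and 234 CPM in knockout cells, where the groups were only narrowly apart. It was named after its values were seen. Its response difference of 0.50 (SE 0.10, adjusted p = 0.00433) was lost with DESeq2's Wald test (adjusted p = 0.3) and without replicate 2 of the LY500307-treated control (adjusted p = 0.0753) or vehicle-treated knockout cells (adjusted p = 0.0691). FAU and RPS23 had positive (0.30 and 0.32) and RPS28 and RPS16 negative response differences (-0.47 and -0.29). These calls were lost without replicate 2 of the LY500307-treated control or vehicle-treated knockout cells for RPS28, and in 5 of the 8 fits without 1 library for each of the others (adjusted p up to 0.326). RPS16 was also lost with DESeq2's Wald test (adjusted p = 0.264), and RPS23 with that test (adjusted p = 0.463), limma-voom, both other scalings and the minimum of 1 CPM in 2 libraries. Their many processed pseudogenes make single values uncertain. C1orf9, now named SUCO, an endoplasmic reticulum membrane protein, kept its call in every alternative. It stood at 98.7 and 99.2 CPM with vehicle and 93.2 and 101 CPM with LY500307 in control cells and rose from 34.7 and 36.7 to 52.2 and 49.9 CPM in knockout cells, a response difference of 0.54 (SE 0.09, adjusted p = 0.000325). TXNIP, which binds thioredoxin and restrains glucose uptake, rose by 0.20 in control cells and 0.56 in knockout cells. The call for TXNIP, 0.36 (SE 0.08, adjusted p = 0.00883), was lost without replicate 1 of the LY500307-treated control, vehicle-treated knockout or LY500307-treated knockout cells (adjusted p up to 0.0885). FAM123B, now AMER1, which restrains WNT signalling by binding APC and beta-catenin, fell from 25.1 and 26.0 to 19.1 and 18.9 CPM in control cells and stood at 11.0 and 11.2 CPM with vehicle and 12.7 and 12.2 CPM with LY500307 in knockout cells. The difference of 0.59 (SE 0.14, adjusted p = 0.0152) passed in 2 of the 8 fits without 1 library, those without replicate 1 of the vehicle-treated control or replicate 2 of the LY500307-treated knockout cells (adjusted p up to 0.0695 in the others). E2F5, a transcription factor of the E2F family, was at 0.56 (adjusted p = 0.0443) and did not pass in 5 of the 8 such fits, with another scaling or with another tool (adjusted p up to 0.323). C9orf140 and C1orf110 had a call in knockout cells and none in control cells, with response differences of 0.58 and -0.99. C9orf140 did not pass without replicate 2 of the LY500307-treated knockout cells (adjusted p = 0.0792), and C1orf110 did not pass without replicate 1 of the vehicle-treated control cells or replicate 2 of the LY500307-treated control or vehicle-treated knockout cells (adjusted p up to 0.11).

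**Figure D5:**
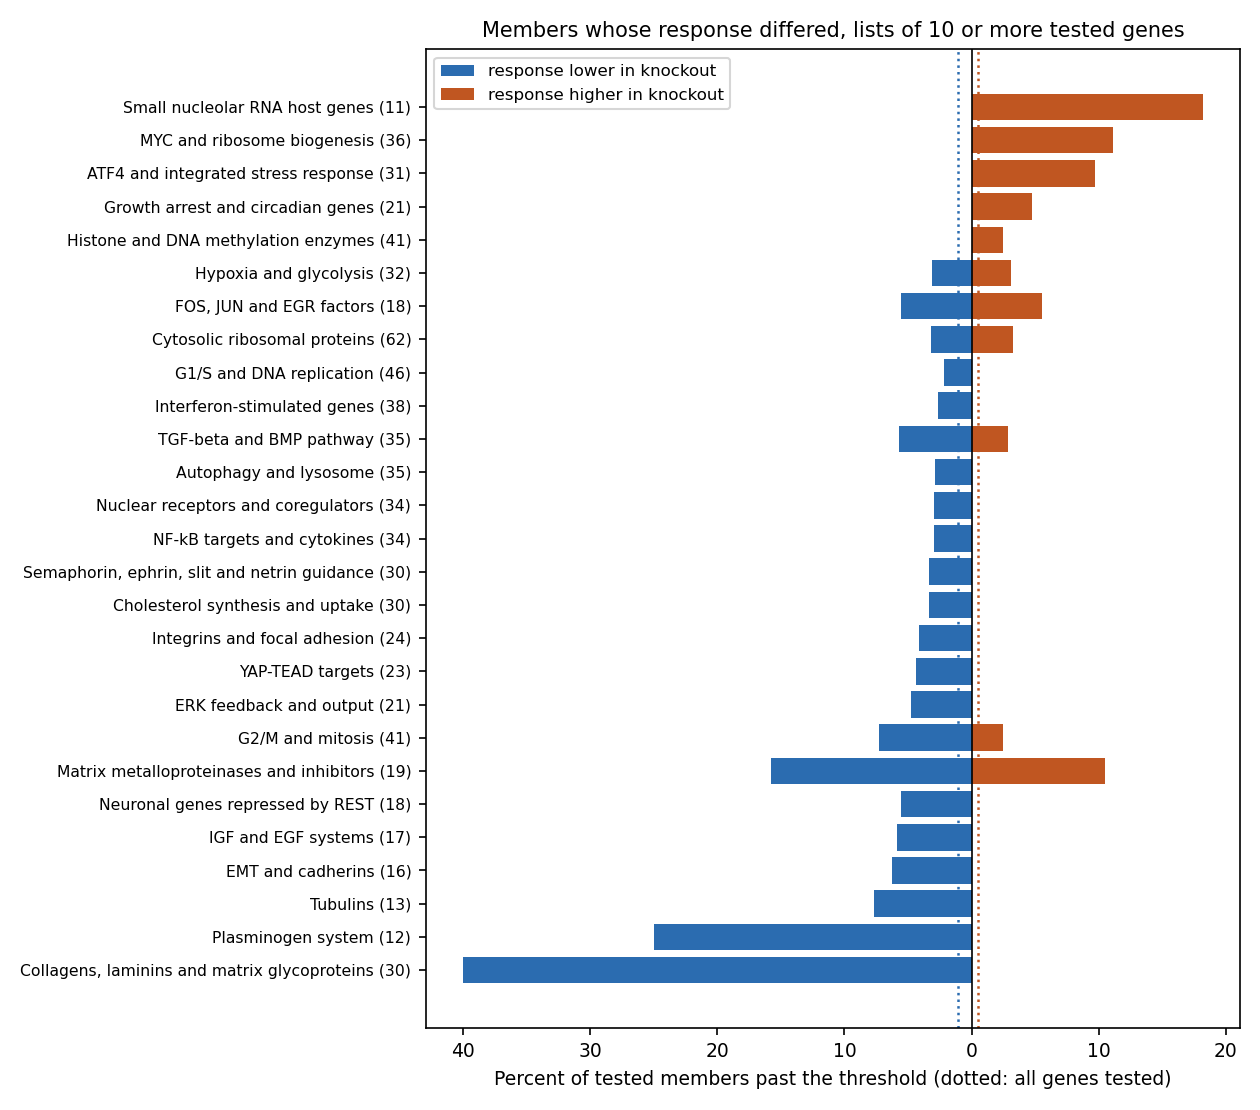
Percent of the tested members of a gene list (number in brackets) with a response difference past an adjusted p of 0.05, with negative differences to the left and positive ones to the right of 0. Drawn are the 27 lists with at least 1 such member among 43 with 10 or more tested genes, the dotted lines mark the shares over all genes tested (1.09% and 0.526%), and the longest bar is the 40% of collagens, laminins and matrix glycoproteins. The lists were chosen with earlier results of these data known.

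With 1.62% of all genes past the threshold, a count of 0 in a list of 17 or 18 genes is near the background. None of 18 tested genes of KDM1A and the CoREST complex passed by edgeR, DESeq2 or limma-voom, with 2 at an unadjusted p under 0.05, and their median response difference was -0.0655. None of 17 tested oestrogen-responsive genes passed with any of these tools, again with 2 at an unadjusted p under 0.05. LY500307 raised 6 of the 17 in control cells and 7 in knockout cells (12.3% and 9.16% of all genes) and lowered 2 in each. No call was made among 23 tested WNT pathway genes, a list that does not include DKK2, with 2 at an unadjusted p under 0.05. Altogether 16 lists with 10 or more tested genes had no member past the edgeR threshold. They held 386 entries, of which 60 (15.5%, against 14.4% of all genes tested) were at an unadjusted p under 0.05, 0 passed with DESeq2 and 1 passed with limma-voom. Among them were homologous recombination and mismatch repair (35 tested), nuclear-encoded oxidative phosphorylation (45), p53 targets with kinase inhibitors (27), NRF2 targets (30), cytosolic heat shock proteins (22) and the endoplasmic reticulum stress response (26).

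Lists with a single member past the threshold included ERK feedback (21 tested, ETV1 at -0.36), interferon-stimulated genes (38 tested, SAMD9 at -0.43), NF-kB targets (34 tested, IL24), IGF and EGF systems (17 tested, EREG at -0.38), integrins and focal adhesion (24 tested, ITGB5 at -0.33), cadherins and mesenchymal transition (16 tested, CDH13 at -0.35), YAP-TEAD targets (23 tested, CTGF at -0.22) and cholesterol handling (30 tested, ABCA1 at -0.67). Each of these response differences was negative. The single members of 2 other lists were positive, TET3 among histone and DNA methylation enzymes and TXNIP among growth arrest and circadian genes. A single member is 2.63% to 6.25% of the lists above, against 1.62% of all genes tested (1.09% negative), and is not read as a result of the list. SAMD9 and ABCA1 passed in all 8 fits without 1 library. ETV1, EREG, CDH13, ITGB5 and CTGF lost their calls in 2, 3, 3, 5 and 7 of them (adjusted p up to 0.0835, 0.125, 0.0853, 0.296 and 0.133), each of them without at least 1 control library. ABCA1, the cholesterol exporter induced by liver X receptors, had 13 and 11.7 CPM with vehicle and 12.7 and 13.1 CPM with LY500307 in control cells and a fall from 37.9 and 37.9 to 25 and 24.9 CPM in knockout cells. TET3, a dioxygenase that oxidises methylcytosine, was the only one of 41 histone and DNA methylation enzymes to pass (2.44%, against 1.62% of all genes tested). Its response difference was 0.56 (SE 0.14, adjusted p = 0.027). TET3 lost its call with DESeq2's Wald test (adjusted p = 0.064) and in 5 of the 8 fits without 1 library. The exceptions were replicate 1 of the vehicle-treated control cells and replicate 2 of either knockout group.

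The threshold itself is a soft edge. Just inside it lay PLTP (-0.33, adjusted p = 0.049), COL6A2 (-0.26, adjusted p = 0.049) and MCM5, and just outside it C11orf49 (-0.61), KIAA0020 (0.27) and RRBP1 (-0.23), each with an adjusted p of 0.0513. The scale also matters where a gene starts at very different levels. In 7 of the 147 genes with a negative response difference, COL1A1, CTGF, GPR56, IL24, KLHL24, MMP2 and PDE2A, the difference of the changes in CPM had the opposite sign, and in the other 211 of the 218 it had the same sign. PLTP did not pass with limma-voom or in 6 of the 8 fits without 1 library (adjusted p up to 0.321), the exceptions being replicate 1 of the vehicle-treated and replicate 2 of the LY500307-treated knockout cells.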

How the data were processed

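RNA of 8 libraries, 2 per group, was measured by single-end RNA sequencing. Each deposited file lists the read count of every gene symbol, which the authors obtained on hg19 with bcl2fastq, TopHat2 2.0.8b and HTSeq, per the submitters' processing notes. Library preparation is described, per the labels' protocols, with a stranded mRNA kit as well as a guide for total RNA. Whether counting used strand was not given in the sources used here. Overlapping antisense genes therefore cannot be told apart. The series text describes the duplicates as runs whose reads were combined, yet each library has its own counts. The spread within pairs exceeded counting noise (chi-square divided by its degrees of freedom, 3.12 to 4.44), and the pairs were kept as separate samples.

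The 5 closing summary lines were removed before library sizes were taken. Reads outside genes made up 10.7% to 12.8% and ambiguous reads 0.811% to 0.861% of uniquely aligned reads. Counts were fitted with edgeR 4.0.16 in R 4.3.3 (filterByExpr, TMM, one mean per group, glmQLFit, glmQLFTest, two-sided, Benjamini-Hochberg over 13498 genes). The fit had 4 residual and 30.1 prior degrees of freedom and a biological coefficient of variation of 3.95%. Adjusted p-values below are from this test unless another tool is named. Alternatives used limma-voom 3.58.1, DESeq2 1.42.0, other scalings and filters, a replicate block and leaving out each library. Counting floors of 3 counts and intervals at the 95% level cover counting error or the spread of these libraries only. The procedure was also run on counts simulated with the spread estimated from these libraries, which cannot show whether that spread is technical.

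The genes, gene lists and motifs were chosen with earlier results of these data known. Named genes are KDM1A, ESR1, ESR2 and, among called genes with at least 5 CPM in a group, the 12 largest differences each way, the 6 smallest p-values of each response kind and up to 4 members of lists with at least 3 called. Others are single members of small counts, chosen after their values were seen. Uncharacterised, antisense and pseudogene symbols were left out, and a few further genes are not reported here. Positions are from GENCODE release 44 on GRCh37, with 18908 genes found under their symbol, 2126 under an older one and 2194 not found or ambiguous.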

Additional observations from a re-analysis of the deposited data

Results flagged for a closer look

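The 218 genes whose response to LY500307 differed between control and knockout cells were marked because the difference itself was tested. Among the named genes, 16 were marked singly because LY500307 moved them in opposite directions, past the threshold and with no overlap between treatments in each population. Those up in control and down in knockout cells had log2 response differences of -1.48 for CADPS, -1.13 for SIGLEC15, -0.95 for SH3RF2, -0.93 for MAP2, -0.72 for LAMB2, -0.51 for SERINC2, -0.51 for F2R, -0.43 for MYLK, -0.32 for KRT18, -0.31 for LAMB1 and -0.29 for SERPINB2. Those down in control and up in knockout cells had response differences of 1.12 for ADAMTS5, 0.89 for RPL22L1, 0.76 for ZNF48, 0.63 for SLC25A15 and 0.30 for SLC7A5. The opposite directions depend on the threshold. At an adjusted p of 0.01, neither response was called for ADAMTS5, CADPS, MAP2, SH3RF2 and SLC7A5. Only the knockout response was called for F2R, KRT18, LAMB1 and MYLK, and only the control response for SLC25A15. SH3RF2 lost its call without replicate 1 of the vehicle-treated control cells (adjusted p = 0.0863). MAP2 lost it without replicate 2 of the vehicle-treated (adjusted p = 0.0637) or replicate 1 of the LY500307-treated control cells (adjusted p = 0.0551). ZNF48 passed in 2 of the 8 fits without 1 library, those without replicate 1 of either LY500307 group (adjusted p up to 0.156 in the others).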

How the results depend on the processing

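None of the 66 named response differences past the threshold changed sign under any alternative. DESeq2's Wald test gave an adjusted p for 57 of the 66, and 52 of them passed. It gave none for ADAMTS5, C1orf110, CADPS, CHAC1, DKK2, MAP2, SH3RF2, SLC26A4 and ZNF48, so their calls were not checked by that test. The number of genes that passed was 220 with library totals, 214 with DESeq2's size factors, 186 with DESeq2's Wald test, 204 with limma-voom and 228 (51 positive, 177 negative) with a minimum of 1 CPM in 2 libraries. It was 350 with no filter on low counts and 643 (297 positive, 346 negative) with a replicate block. At an adjusted p of 0.01 it was 90, and with a difference of at least 1.5-fold it was 53. Same-numbered libraries deviated together only weakly, with positive correlations of 0.041 to 0.11 over 6 pairs. These values do not settle whether the numbers pair the samples, and the reported fit has no block. Without 1 library the number was 95 to 262, lowest without replicate 2 of the LY500307-treated control cells, and 52 of the 218 (43 negative, 9 positive) passed in all 8 such fits. Without 1 library the LY500307 response had 2160 to 3810 genes in control cells and 1422 to 2736 in knockout cells, with 2160 when replicate 2 of the vehicle-treated control and 1422 when replicate 2 of the vehicle-treated knockout cells was left out. With responses called at an adjusted p of 0.01, genes of opposite sign were 7, those of the same sign and larger in knockout cells 7, and those with neither response called 30. Negative matrix genes numbered 7 to 14 without 1 library. Positive ribosome biogenesis genes numbered 2 with a minimum of 1 CPM in 2 libraries, 14 with a replicate block and 1 to 4 without 1 library. The uncalled response difference of ESR1, 0.22, became -0.08 without replicate 2 of the vehicle-treated and -0.42 without replicate 1 of the LY500307-treated knockout cells, and 0.67 without replicate 2 of the latter. The cause of these changes was not tested. With 2 libraries a group and few counts of ESR1 and ESR2 per library, a response difference of these oestrogen receptor transcripts could not be measured here. Among the called genes, 8 averaged under 1 CPM in a group.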

Other observations

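Further genes past the threshold, all chosen after their values were seen, add to the picture above. PRKCSH, the beta subunit of glucosidase II, stood at 391 and 383 CPM with vehicle and 383 and 393 CPM with LY500307 in control cells and fell from 488 and 497 to 388 and 387 CPM in knockout cells, a response difference of -0.35 (SE 0.06, adjusted p = 0.000445). ANK3, which tethers membrane proteins to the spectrin skeleton, stood at 62.1 and 62.3 CPM with vehicle and 69.2 and 68.1 CPM with LY500307 in control cells and fell from 141 and 143 to 115 and 118 CPM in knockout cells, with -0.43 (SE 0.08, adjusted p = 0.00136). GABARAPL1, an autophagosome protein, rose from 16.2 and 14.8 to 25.4 and 26.5 CPM in control cells and stood at 28.0 and 25.9 CPM with vehicle and 27.2 and 27.5 CPM with LY500307 in knockout cells, with -0.73 (SE 0.12, adjusted p = 0.000475). PGF, placental growth factor, rose from 7.67 and 8.57 to 15.2 and 14.6 CPM in control cells and stood at 31.7 and 35.3 CPM with vehicle and 34.5 and 38.4 CPM with LY500307 in knockout cells, with -0.75 (SE 0.14, adjusted p = 0.0016). JUN, a subunit of AP-1, fell from 394 and 403 to 317 and 309 CPM in control cells and stood at 380.5 and 355 CPM with vehicle and 356 and 389.7 CPM with LY500307 in knockout cells, with 0.37 (SE 0.07, adjusted p = 0.000966). In GABARAPL1, PGF and JUN the treatments separated in control cells and overlapped in knockout cells, in PRKCSH the reverse held, and in ANK3 they separated in both.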
